A study of Rattus norvegicus with 12 samples.

Results

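Leukocyte marker genes were followed in dorsal root ganglia of the rat over the first hours after the sciatic nerve had been cut. The set holds 50 genes, 19 markers of macrophages, 14 of neutrophils and 17 of lymphocytes, and a gene was taken as present where the gene name of an array spot equalled the listed symbol. Of the 50, 47 were on the array among 35287 gene names. The neutrophil receptors Cxcr2 and Fpr2 and the B-cell receptor subunit Cd79a were not found under those names. Of the 47, 44 passed the filter on dim probes and were tested among 29627 genes: all 19 macrophage markers, 11 neutrophil markers and 14 lymphocyte markers. Fpr1, Cd3e and Klrd1 did not pass, with probes that cleared the background on 0, 1 and 6 of the 12 arrays.

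The tissue was L4-6 dorsal root ganglion, which holds the cell bodies of sensory neurons together with satellite glia, Schwann cells, vessels and resident macrophages. Every rat was a male Sprague-Dawley rat of 180 to 220 g whose left sciatic nerve had lost a segment of 1 cm at mid-thigh, and the 4 groups were taken 0.5 h, 3 h, 6 h and 9 h later. Each group had 6 rats and 3 one-colour arrays, and the labels do not say which rats went into which array, so p-values measure only the spread between these arrays. No uninjured group was among the samples, and 0.5 h served as the reference. In whole ganglia, more cells of a type and more RNA per cell cannot be told apart.

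Macrophages are resident in the ganglion, where they clear debris through scavenger and complement receptors. Neutrophils are made in the bone marrow, and they fill their granules there in a fixed order, from myeloperoxidase and defensins to cathelicidin and collagenase and then to gelatinase. Lymphocytes are marked by the T-cell receptor complex, by cytotoxic granule proteins or by the B-cell receptor. These cells are also carried in the blood inside a ganglion.

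Levels are given as log2 of the processed spot signal minus the 75th percentile of the same array, so a level of 0 is a spot at that percentile and a difference of 1 is a doubling. A gene was called where limma's Benjamini-Hochberg adjusted p, over all tested genes, was under 0.05. Of 14 sensory neuron genes, 13 lay at least 3.68 above that percentile on every array, as for Prph (peripherin) at 7.35 to 7.74, and Isl1 lay at 0.69 to 1.17. The 75th percentile lay between 1813.8 and 2151.8 signal units. Between 63.3% and 67.6% of probes were well above background on the 0.5 h arrays and between 82.3% and 85.4% on the others, with a median local background of 64 to 85.5 units against 37 to 45. The lowest level of a probe well above background lay between -5.07 and -4.71 at 0.5 h and between -7.52 and -6.87 at the later times. Of the 44 tested members, 11 were not well above background on a single 0.5 h array (19.5% of all tested genes were not), so for them a difference from 0.5 h is shown only where the later level lies above that floor, and is then given as at least so many fold. The 0.5 h, 3 h and 9 h arrays each lay on a slide of their own and the 6 h arrays on 2 slides. The 3 h and 6 h arrays were scanned on 1 day and the 0.5 h and 9 h arrays each on another, so scan day and time cannot be told apart except between 3 h and 6 h.

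The array labelled 6 h replicate 3 stood apart from the other 11 for many of the members, and results that rest on it are given with and without it. It was the highest of the 12 arrays for 19 of the 44 tested members, against 5.61% of all tested genes. It lay at least 1 log2 unit above the next array for 9 members, against 0.233% of all tested genes (69 genes). Any array stood that far above the rest for 2.88% of genes. The 9 members were the neutrophil genes S100a8, S100a9, Mpo, Ngp, Camp and Mmp8, the cytotoxic granule gene Nkg7 and the B-cell genes Cd79b and Ms4a1.

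**Figure D1:**
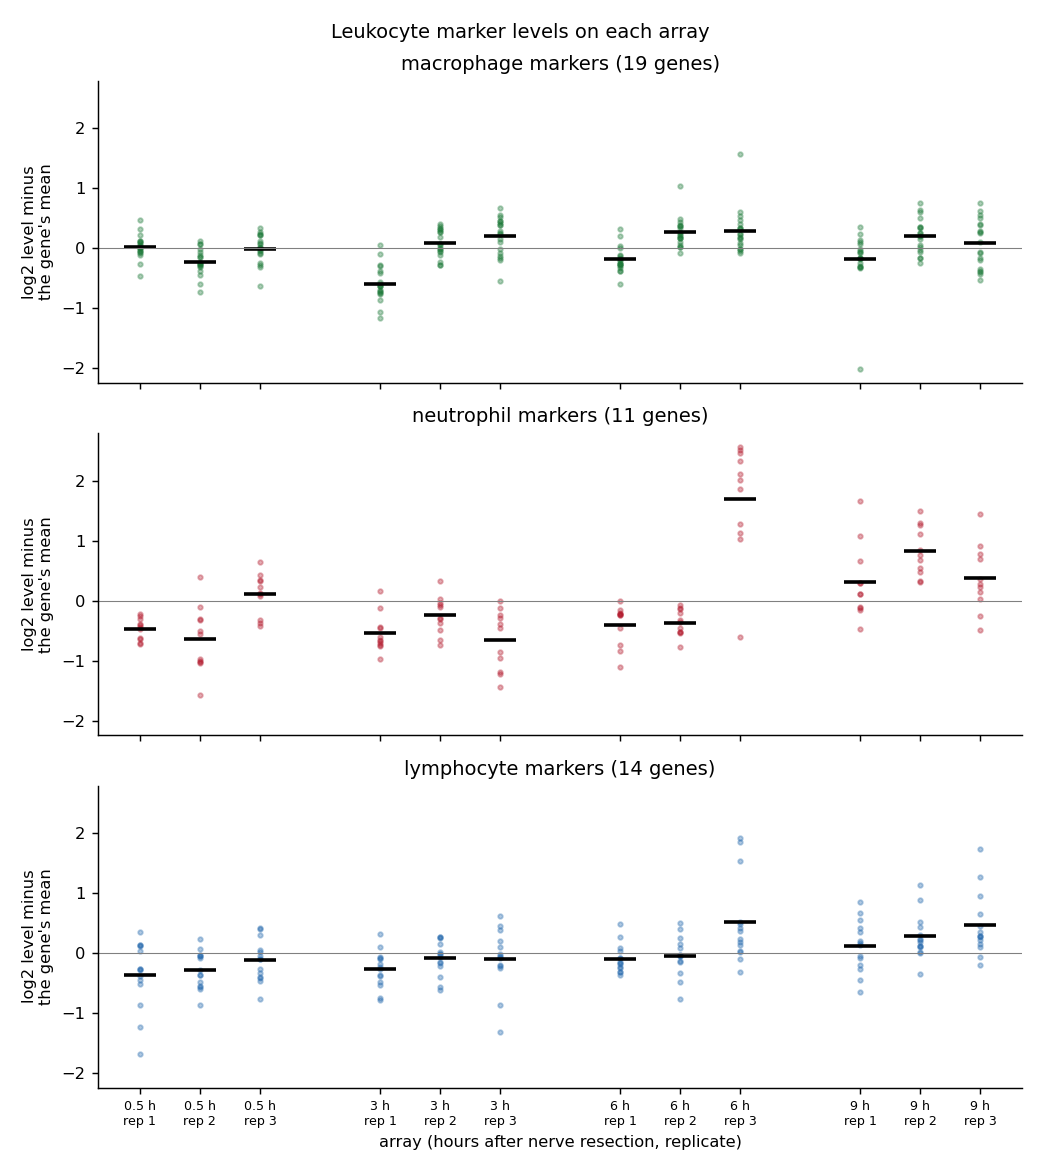
Level of each tested member on each of the 12 arrays, as log2 level minus the gene's own mean over the arrays, in 3 panels for macrophage, neutrophil and lymphocyte markers; points are genes and black bars are the mean of the list. The neutrophil mean is 1.70 on 6 h replicate 3 and between -0.65 and 0.83 on the other arrays, while the macrophage mean is lowest, at -0.59, on 3 h replicate 1.

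Promoters of 5 neutrophil genes that were high together on 6 h replicate 3 are shown first, with that of Csf3r, a neutrophil gene that was not. Each line gives the 250 bases before the transcription start on the gene's strand, from RefSeq's table on build GRCr8. Capitals mark matches, on either strand, to the PU box GAGGAA, the RUNX core TGTGGT and the C/EBP form TTNNGCAA, which are short forms of the sites of myeloid and lymphoid transcription factors.
S100a9, chr2:178490623-178490872, minus strand: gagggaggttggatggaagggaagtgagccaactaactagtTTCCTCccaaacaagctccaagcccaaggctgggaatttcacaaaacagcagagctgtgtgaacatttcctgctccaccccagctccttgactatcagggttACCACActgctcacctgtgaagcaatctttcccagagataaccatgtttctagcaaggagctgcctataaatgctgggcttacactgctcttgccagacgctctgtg
Mpo, chr10:73092152-73092401, plus strand: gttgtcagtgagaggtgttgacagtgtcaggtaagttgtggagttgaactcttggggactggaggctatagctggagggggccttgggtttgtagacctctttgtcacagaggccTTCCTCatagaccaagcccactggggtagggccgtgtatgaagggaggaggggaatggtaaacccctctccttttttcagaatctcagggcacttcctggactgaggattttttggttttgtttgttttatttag
Camp, chr8:118721999-118722248, minus strand: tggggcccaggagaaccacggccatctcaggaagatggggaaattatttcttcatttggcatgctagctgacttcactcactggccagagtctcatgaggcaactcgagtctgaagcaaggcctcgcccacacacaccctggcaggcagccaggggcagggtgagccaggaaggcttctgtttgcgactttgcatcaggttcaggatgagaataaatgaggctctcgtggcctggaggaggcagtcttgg
Ngp, chr8:119272355-119272604, plus strand: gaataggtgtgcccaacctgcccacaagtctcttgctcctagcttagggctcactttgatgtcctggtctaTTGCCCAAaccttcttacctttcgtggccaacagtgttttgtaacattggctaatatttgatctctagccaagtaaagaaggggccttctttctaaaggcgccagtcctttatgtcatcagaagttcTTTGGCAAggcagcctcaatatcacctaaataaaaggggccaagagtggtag
Mmp8, chr8:13008640-13008889, plus strand: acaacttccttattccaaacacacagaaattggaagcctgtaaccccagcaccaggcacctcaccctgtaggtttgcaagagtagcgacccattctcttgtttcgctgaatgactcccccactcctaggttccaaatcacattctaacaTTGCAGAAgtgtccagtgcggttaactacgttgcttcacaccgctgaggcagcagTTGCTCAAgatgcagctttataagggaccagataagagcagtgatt
Csf3r, chr5:143582970-143583219, plus strand: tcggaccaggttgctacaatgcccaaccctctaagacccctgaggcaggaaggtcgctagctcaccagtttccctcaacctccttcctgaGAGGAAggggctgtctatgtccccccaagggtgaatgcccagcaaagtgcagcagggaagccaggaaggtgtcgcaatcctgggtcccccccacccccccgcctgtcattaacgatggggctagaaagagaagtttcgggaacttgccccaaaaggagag

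S100a9 held a PU box and a RUNX core, Mpo and Csf3r a PU box each, Ngp and Mmp8 2 C/EBP forms each, and the Camp window none of the 3 forms. Over the 37 members with an entry in the promoter table, the PU box was found for 12 of 15 macrophage markers, 5 of 10 neutrophil markers and 4 of 12 lymphocyte markers, against 23.3% of all 33469 promoters. The RUNX core was found for 3, 2 and 5 of them, against 14.5% of all promoters. The C/EBP form was found for 3, 4 and 0, against 9.22%. A match describes these letters only. None of the 3 forms was found in all 5 of the windows printed for genes high on 6 h replicate 3.

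S100a8 and S100a9 encode the subunits of calprotectin, the main cytosolic protein of neutrophils. S100a8 had levels of 0.14, 0.02 and 0.91 on the 0.5 h arrays, -0.19, 0.27 and -0.65 at 3 h, 0.43, 0.22 and 2.91 at 6 h, and 0.88, 1.25 and 0.73 at 9 h. The last 6 h array was the high one, 1.66 above the next highest, and the other 6 h arrays lay inside the range of the 0.5 h arrays. S100a9 ran in parallel, with -0.16, -0.28 and 0.66 at 0.5 h, -0.47, 0.12 and -0.73 at 3 h, 0.02, -0.30 and 2.34 at 6 h, and 0.52, 0.77 and 0.26 at 9 h. Its gap to the next array was 1.57.

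S100a8 had 3 probes, which are shown because they do not read the same strand. Their first 30 of 60 bases, with the positions that the files give on build rn4, are these.
S100a8 probe to NM_053822, chr2:182962328-182962387: aaataccgaaagcttgttcaaagaattgga
S100a8 probe to CA507495, chr2:182961489-182962022: ccattgtcgataaaaatttcctttcacaca
S100a8 probe to CA507495, chr2:182962043-182962102: ggcatggtgattcccttttataccagaata
The files list the coordinates of the probe to NM_053822 in ascending order and those of both probes to CA507495 in descending order, which places them on opposite strands. All 3 were highest on 6 h replicate 3. The probe first listed for CA507495 read -1.04 there and between -4.51 and -2.90 on the other arrays, and the last read -2.66 there and between -5.66 and -3.84 on the others. The values of S100a8 given here are those of the probe to NM_053822.

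Mpo, the peroxidase of the first-formed granules, gave -5.26, -5.80 and -5.11 at 0.5 h, -5.45, -5.52 and -5.64 at 3 h, -5.63, -5.32 and -2.22 at 6 h, and -4.13, -3.48 and -3.87 at 9 h. It was high on 6 h replicate 3, and all 3 of the 9 h arrays lay above the remaining 8. At 0.5 h its probe did not clear the background on a single array. Np4, a neutrophil defensin of the same granules, read 1.29 on 6 h replicate 3 and between -0.43 and 0.35 on the other 11 arrays, a gap of 0.94.

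Camp, the cathelicidin precursor of the second granule class, read 1.91 on 6 h replicate 3 and between -2.05 and 0.04 elsewhere, a gap of 1.87. A second probe for it, to CB577971 and on the opposite strand by its coordinates, was well above background on 6 arrays and was highest at -6.19 on 9 h replicate 3, not on 6 h replicate 3. Ngp, which encodes neutrophilic granule protein, read -2.45 on 6 h replicate 3, and the next array, 9 h replicate 2, read -3.80. Mmp8, the neutrophil collagenase, read -2.69 there and between -5.74 and -3.94 on the others. Mpo, Ngp and Mmp8 were not well above background on the 0.5 h arrays, so their low values there are bounds.

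Mmp9, the gelatinase of the last granules, gave -4.94, -4.98 and -2.34 at 6 h and -2.54, -3.36 and -3.84 at 9 h, so that 6 h replicate 3 was highest by only a little and 9 h replicate 1 was close to it. It had read -4.82, -5.77 and -3.86 at 0.5 h. Padi4, which citrullinates histones in neutrophils, read -1.67 on 6 h replicate 3 and -3.03 and -3.26 on the other 6 h arrays, and -2.68, -2.49 and -2.11 at 9 h. Its 9 h arrays lay above all 3 of the 0.5 h arrays, at -3.01, -3.11 and -2.69, by a narrow margin.

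The receptors among the neutrophil markers were not highest on this array. Csf3r, the receptor for granulocyte colony-stimulating factor, read -5.96, -5.18 and -5.45 at 6 h, so 6 h replicate 3 lay between its neighbours. Il1r2, the decoy receptor for interleukin 1, read -3.60, -3.73 and -2.57 at 6 h and -3.73, -2.10 and -4.09 at 9 h, and was highest on 9 h replicate 2; it was 1.09 higher on 6 h replicate 3 than on the mean of the other 6 h arrays. Cxcr2 is listed on the array as Il8rb, with accession NM_017183, and was not a member by the naming rule. That probe was well above background on 5 arrays, with levels of -7.46, -7.46 and -6.27 at 6 h and -5.87, -6.09 and -7.20 at 9 h.

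Set against the mean of the other 6 h arrays, 6 h replicate 3 was higher for 11 of 11 neutrophil markers, with a median difference of 2.48 log2 units and a range of 0.12 (Csf3r) to 3.25 (Mpo, 9.52-fold). The same difference had a median of 0.20 over the 19 macrophage markers, 0.40 over the 14 lymphocyte markers and -0.02 over all genes. The 3 lymphocyte genes with the widest differences were Cd79b at 1.96, Ms4a1 at 1.96 and Nkg7 at 1.86, while Cd3d was lower by 0.22 and Cd2 by 0.12. Among macrophage markers the widest difference was 0.89 for Itgam, an integrin subunit that neutrophils also carry, and C1qb was lower by 0.10. The array has no replicate of its own, so these differences carry no test.

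**Figure D2:**
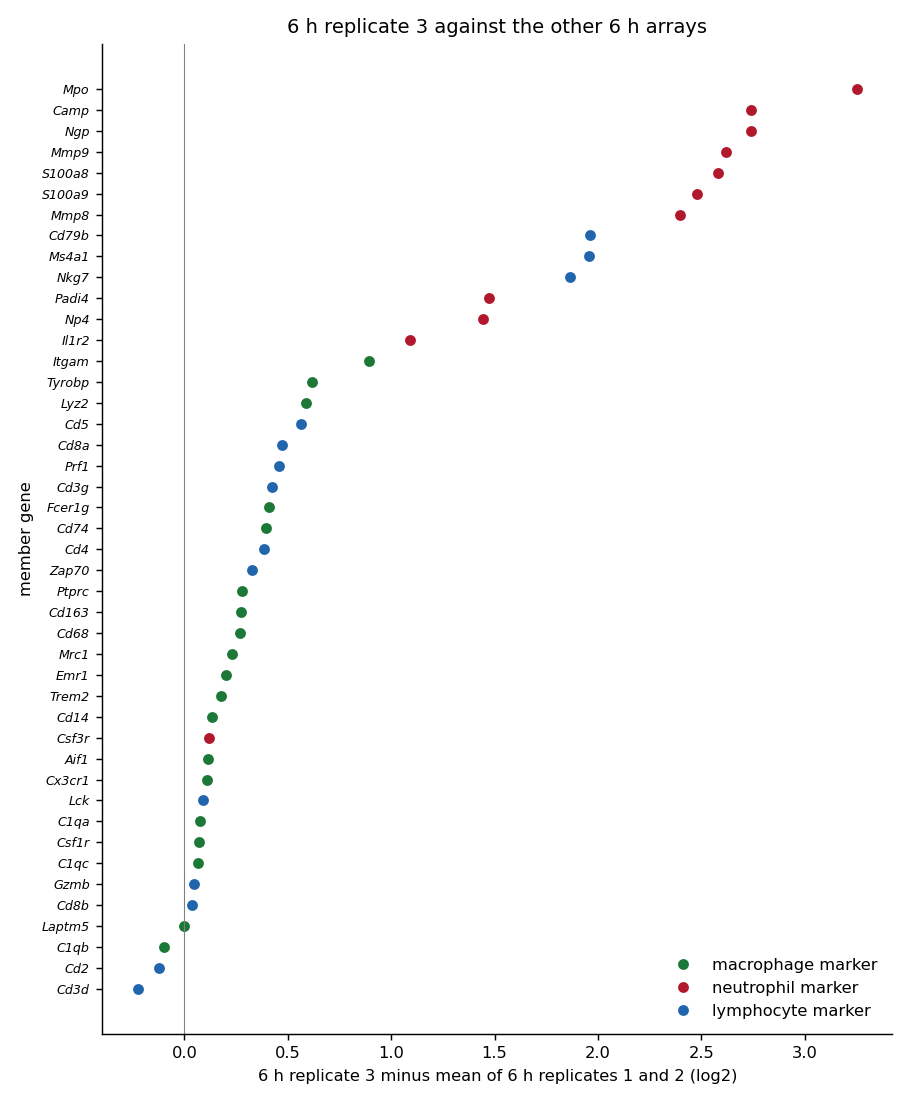
Level on 6 h replicate 3 minus the mean of 6 h replicates 1 and 2, on the log2 scale, for each of the 44 tested members sorted by size; colours give the marker group. Mpo lies at 3.25, 10 of the 11 neutrophil genes lie above 1, and Csf3r lies at 0.12 among the macrophage genes.

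Other lists of blood and marrow genes were high on the same array. Of 18 further neutrophil and granule genes tested, 11 had their highest level there, against 5.61% of all genes, and 7 stood apart by at least 1, against 0.233%, among them Gfi1 (gap 1.93) and Cebpe (1.29), regulators of granulocyte maturation, and Ctsg (1.89), a granule protease. Of 15 red blood cell genes 10 were highest there and 6 stood apart, with gaps of 1.66 for Rhag and 1.01 for Klf1. Of 15 genes of cell division 13 were highest there, none by 1, and of 11 mast cell and basophil genes 4, with a gap of 2.28 for Mcpt8. This last list was split, as 4 others of its 11 genes, Cpa3, Cma1, Mcpt1 and Mcpt2, were highest on 0.5 h replicate 1. None of the sensory neuron genes was highest there and 5 of 14 were lowest, against 10.4% of all genes.

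The 69 genes that stood apart on 6 h replicate 3 comprised the 9 members, 15 genes of these other lists and 45 of neither. The 10 non-members with the widest gaps, from 2.82 down to 2.08, were Ear11, M12981, ENSRNOT00000021645, Mcpt8, Mcpt8l2, Mcpt8l3, X15009, Defa, TC605652 and RGD1565970. The array's own descriptions name Ear11 and ENSRNOT00000021645 as eosinophil-associated ribonucleases, M12981 as an immunoglobulin kappa constant region, X15009 as a beta-globin and Defa as an alpha-defensin. None of 14 genes of skeletal muscle and fat was highest on this array. The 10 muscle genes were all lower there than on the mean of the other 6 h arrays, by -0.71 to -0.21, and the 4 fat genes were all higher, by 0.64 to 1.14. The part that other cell types in the sample play in the neutrophil values was not tested.

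**Figure D3:**
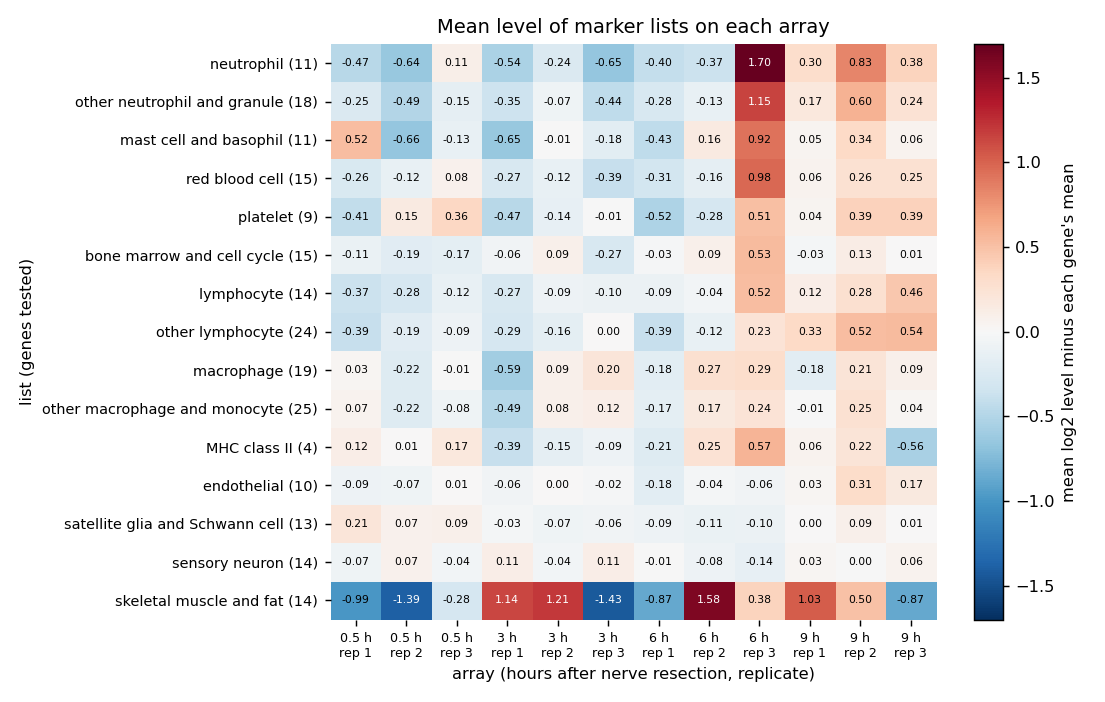
Mean centred log2 level of each marker list on each array, with the number of tested genes in parentheses; red is above and blue below each gene's mean over 12 arrays. On 6 h replicate 3 the neutrophil list is at 1.70, the other neutrophil list at 1.15, the red blood cell list at 0.98 and the sensory neuron list at -0.14.

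Macrophage markers varied together too, but around a different array. Replicate 1 of 3 h had the lowest of the 12 levels for 12 of 19 macrophage markers, against 5.78% of all tested genes, 1 of 11 neutrophil markers and 2 of 14 lymphocyte markers. Under median scaling 9 of the 19 were lowest there and under quantile scaling 11. Of 25 further macrophage and monocyte genes, 10 were lowest on that array. The array read below the mean of the other 3 h arrays for 17 of 19 macrophage markers, with a median of -0.80. Its skeletal muscle and fat mean was 1.14. That mean was 1.207 on 3 h replicate 2, 1.585 on 6 h replicate 2 and 1.026 on 9 h replicate 1. The macrophage means on those arrays were 0.085, 0.266 and -0.181. The part of muscle and fat in the macrophage values was not tested.

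The complement gene C1qa, which encodes a chain of the C1q molecule that macrophages make, read 2.44, 1.83 and 1.97 at 0.5 h, 1.58, 2.62 and 2.73 at 3 h, 2.10, 2.66 and 2.45 at 6 h, and 2.13, 2.19 and 1.82 at 9 h. C1qc read 0.96, 0.41 and 0.54 at 0.5 h, 0.29, 1.18 and 1.52 at 3 h, 0.72, 1.19 and 1.02 at 6 h, and 0.79, 1.11 and 0.48 at 9 h. In both, 3 h replicate 1 was lowest and 3 h replicate 3 highest, so the whole range of 12 arrays was reached inside 1 time. Second probes for C1qa and C1qc were also lowest on 3 h replicate 1.

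Among the surface receptors, Csf1r, the receptor that maintains macrophages, read -1.17, -0.65 and -0.09 at 3 h and stayed between -0.88 and -0.19 on the other 9 arrays. Trem2, a lipid-sensing receptor, read -0.65, 0.49 and 0.31 at 3 h and between 0.13 and 1.00 on the others. Its signalling partner Tyrobp read 1.33, 1.98 and 2.06 at 3 h, and its highest level was 2.50, on 6 h replicate 3. A dimmer Tyrobp probe, well above background on all 12 arrays, did not follow. It was lowest on 6 h replicate 2, at -4.19, and read -3.33 on 3 h replicate 1. Emr1, which encodes F4/80, read -2.26, -1.32 and -1.12 at 3 h. Cd14, a co-receptor for bacterial lipopolysaccharide, was about as low on 0.5 h replicate 2 (-0.98) as on 3 h replicate 1 (-0.99).

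The lysosomal markers Cd68, Lyz2 and the adaptor Fcer1g were also lowest on 3 h replicate 1. Cd68 read 0.11, 1.15 and 0.96 at 3 h and between 0.53 and 1.18 on the arrays of the other times. Lyz2, lysozyme, read 3.05, 3.88 and 4.23 at 3 h and reached 4.41 on 6 h replicate 3. Fcer1g, the Fc receptor gamma chain, read 1.69, 2.34 and 2.69 at 3 h. Laptm5, a lysosomal membrane protein of blood cells in general, did not follow, with 2.69, 2.70 and 2.61 at 3 h and a range over 12 arrays of 0.56. The probes of Ptprc, which encodes the leukocyte antigen CD45, disagreed. The brightest, not well above background at 0.5 h, read -4.81, -4.99 and -4.79 at 3 h. The other 2, both to NM_138507, were lowest on 3 h replicate 1, at -6.06 and -7.32.

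Itgam, the alpha subunit of the CD11b integrin, was the most variable macrophage marker. It read -3.32, -3.49 and -3.21 at 0.5 h, -4.10, -2.97 and -3.79 at 3 h, -2.92, -2.20 and -1.67 at 6 h, and -5.26, -3.48 and -2.49 at 9 h. Replicate 1 of 9 h was 1.16 below the next lowest array, and the 3 arrays of 9 h spanned more than all 9 others.

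The remaining macrophage markers were Aif1, Mrc1, Cd74, Cx3cr1, C1qb and Cd163. Aif1, an actin-binding protein of microglia and macrophages, ranged over 0.88 log2 units and the mannose receptor Mrc1 over 0.72. Cd74, the invariant chain of class II antigen presentation, ranged over 0.82, from 1.34 on 3 h replicate 1 to 2.16 on 6 h replicate 3. Cx3cr1, the fractalkine receptor, read -4.64, -4.23 and -4.36 at 9 h, above all 9 other arrays, and -5.45, -5.13 and -4.99 at 0.5 h, where it was not well above background; the difference, at least 1.35-fold, missed the threshold (limma adjusted p = 0.0701).

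The spread between arrays of the same time was wider for the members than for most genes. The pooled SD within a time had a median of 0.37 log2 units over the macrophage markers, 0.80 over the neutrophil markers and 0.34 over the lymphocyte markers, against 0.14 over all genes. Without 6 h replicate 3 the neutrophil median fell to 0.39 and the lymphocyte median to 0.27, and without 3 h replicate 1 the macrophage median fell to 0.27. The widest were Mmp9 at 1.00, Mpo at 0.97 and Ngp at 0.96, and 1.18% of all genes had a wider spread than Mmp9. The narrowest were Laptm5 and Lck, both at 0.12, below the median of all genes.

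**Figure D4:**
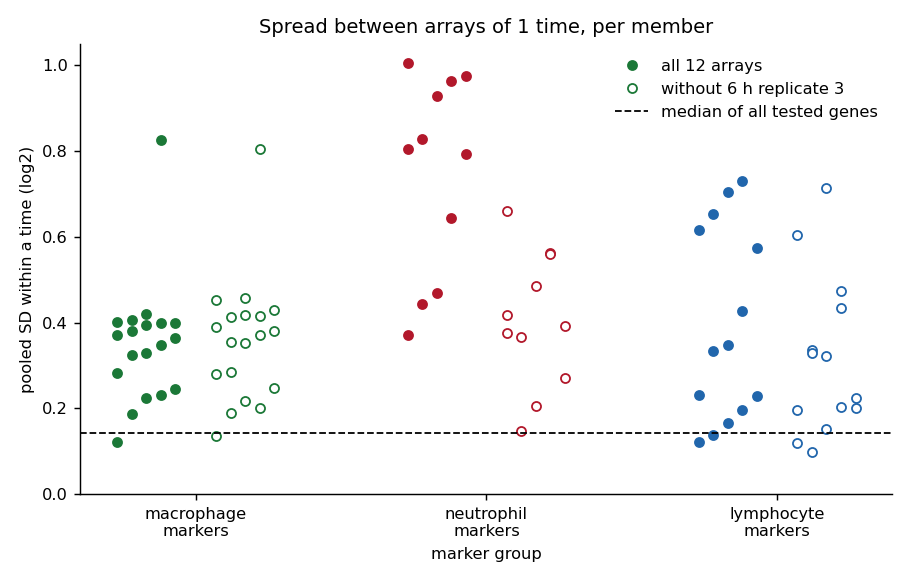
Pooled standard deviation within a time, in log2 units, for each tested member by marker group, over all 12 arrays (filled) and without 6 h replicate 3 (open); the dashed line is the median over all tested genes, 0.14. Filled neutrophil points reach from 0.37 to 1.00 and open ones from 0.15 to 0.66.

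Between times, few members passed the test. The comparisons with 0.5 h share the 0.5 h arrays. At 3 h, 1 of 44 members was called, against 22.7% of all tested genes. At 6 h it was again 1, Cd2, against 13.4%. At 9 h it was 7 of 44, or 15.9%, against 33.4%, and the median difference was 0.31 over the members (0.23 with the dim ones at their bound, or at 0 under the floor) and 0.10 over all genes. From 3 h to 6 h, 1 member was called against 10.4% of genes, and from 6 h to 9 h 5 were called (11.4%) against 25.1%. The share of members called was thus below that of all genes in each of the 5 comparisons. Cd2 at 6 h, and Cd2 and Cd5 at 9 h, were called against 0.5 h although their later levels lay under the floor of the 0.5 h arrays, so no rise from 0.5 h is shown for them. The same held for 25.1% of the calls higher at 9 h than at 0.5 h over all genes.

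The background correction bears on every one of these calls. With normexp in place of the scanner's correction, of these calls only the fall of Cd3d at 3 h was still called, and over all genes the calls at 9 h against 0.5 h dropped from 9882 to 422. Unless stated otherwise, the calls of members below held with each array left out in turn. They also held under the other settings in which the gene was tested, apart from normexp and the replicate block. Scaling bears on small differences. Median scaling moved the median of all genes from 0.10 to -0.01 at 9 h against 0.5 h and from 0.11 to -0.10 at 9 h against 6 h. Of the genes called from 6 h to 9 h, 76.4% were higher at 9 h, and 47.2% under quantile and 37% under median scaling; of the members, 4 were higher and 1 lower, then 2 and 3, and 3 and 4. At 9 h against 0.5 h the share of higher calls over all genes was 68%, 53.5% and 46.8%, and the members' calls were 6 higher and 1 lower, then 4 and 1 under both.

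Csf3r rose at 9 h. It read -5.25, -4.46 and -5.23 at 0.5 h, -5.59, -5.50 and -4.86 at 3 h, -5.96, -5.18 and -5.45 at 6 h, and -3.77, -3.59 and -3.40 at 9 h. All 3 of the 9 h arrays lay above the 9 others. The difference was 1.39 ± 0.28 (SE, 3 arrays against 3) from 0.5 h, 2.63-fold with limma adjusted p = 0.00457, and 1.94 ± 0.28 from 6 h, 3.84-fold with adjusted p = 0.000605. Its probe was well above background on 1 of 3 arrays at 0.5 h and on all 9 later ones. The levels on 0.5 h replicates 1 and 3 lay under the floors of those arrays, -4.75 and -4.71. The size of the rise from 0.5 h is therefore uncertain.

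The other 10 neutrophil markers were not called in any comparison. Of the 8 measured at 0.5 h in the whole group of 11, all 8 had a higher level at 9 h, 7 at 6 h and 2 at 3 h. Over all 29627 genes, 18625 were higher at 9 h, 13052 at 6 h and 15675 at 3 h. The neutrophil count at 6 h rests on 6 h replicate 3. On the mean of the other 6 h arrays, only Il1r2 of the 8 lay above its 0.5 h mean, at -3.66 against -4.31. S100a8, for one, lay at 0.324 against 0.355. With Mpo, Ngp and Mmp8 at their bound, the median difference of the 11 from 0.5 h was 0.51 at 9 h, 0.57 at 6 h and -0.23 at 3 h. The median at 6 h includes 6 h replicate 3. Mpo was at least 2.02-fold higher at 9 h (limma adjusted p = 0.122) and Mmp9 differed by 1.57 (adjusted p = 0.131), without overlap between the arrays of both times. The Mmp9 probe was well above background on 1 of 3 arrays at 0.5 h. With 6 h replicate 3 left out, which narrows the estimated spread and leaves both means as they are, 13 of 44 members were called at 9 h against 0.5 h, or 29.5%, against 31.2% of all genes. The 5 neutrophil genes among them were Csf3r, Mpo (adjusted p = 0.00108), Padi4 (0.0397), Mmp9 (0.0473) and Mmp8 (0.0478). The array left out had been singled out because neutrophil genes stood apart on it, so the added calls are no independent support. Mpo and Mmp8 have only bounds at 0.5 h. With the same array left out, the count from 6 h to 9 h rose from 5 to 8, against 18.2% of all genes. Mpo and Padi4 were among the 3 neutrophil genes called. In that comparison the 6 h mean moved as well as the spread, for Mpo from -4.391 to -5.475.

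Of the macrophage markers, 2 of 19 were called at 9 h against 0.5 h, and 10 of the 17 measured at 0.5 h were higher at 9 h, with a median of 0.10 over the 19, as over all genes. In the mean of a gene's probes, Csf1r was also called higher at 9 h. It differed by 0.63 from 0.5 h (limma adjusted p = 0.0303) and by 0.94 from 6 h (adjusted p = 0.00495). That mean includes probes well above background on only 10 and 3 arrays. Tyrobp was called in the same way from 0.5 h to 9 h, by 0.42 (adjusted p = 0.0378). C1qb fell. It read 5.81, 5.41 and 5.43 at 0.5 h, 4.96, 5.32 and 5.22 at 3 h, 5.55, 5.71 and 5.53 at 6 h, and 5.16, 5.17 and 4.80 at 9 h, with no overlap between 9 h and either 0.5 h or 6 h. The differences of 9 h were -0.50 ± 0.14 (SE) from 0.5 h, limma adjusted p = 0.0244, and -0.55 ± 0.14 from 6 h, adjusted p = 0.0192. The first call was lost without 0.5 h replicate 1 (adjusted p = 0.0765) or 9 h replicate 3 (0.0825) and when 0.5 h and 9 h were fitted alone (0.0689). The second was lost without 6 h replicate 2 (0.0682) or 9 h replicate 3 (0.0679).

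Cd163, the haemoglobin scavenger receptor, rose by 0.94 ± 0.30 (SE), 1.92-fold with limma adjusted p = 0.0383, from 0.5 h to 9 h. It read -3.68, -4.35 and -4.25 at 0.5 h, -4.34, -3.84 and -3.05 at 3 h, -3.78, -3.36 and -3.30 at 6 h, and -3.38, -2.98 and -3.12 at 9 h. The 0.5 h and 9 h arrays did not overlap, while 3 h spanned nearly the whole range. The call was lost when any of 6 arrays was left out, with adjusted p from 0.0508 to 0.113, under quantile (0.0588) and median scaling (0.0522), and in the mean of its probes (0.229).

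In the lymphocyte group 4 of 14 were called higher at 9 h than at 0.5 h, against 22.7% of all genes, and 2 of these, Gzmb and Lck, were measured at both times. The other 2, Cd5 and Cd2, lay under the floor of the 0.5 h arrays. The median difference of the 14 was 0.57, and 0.09 with dim genes at their bound. Gzmb, named for granzyme B, a serine protease of cytotoxic granules, read -4.11, -3.85 and -4.24 at 0.5 h, -3.72, -3.84 and -3.90 at 3 h, -4.07, -4.30 and -4.14 at 6 h, and -3.41, -3.39 and -2.88 at 9 h. Every 9 h array lay above all others. The rise was 0.84 ± 0.15 (SE) from 0.5 h, 1.79-fold with limma adjusted p = 0.00276, and 0.94 ± 0.15 from 6 h, 1.92-fold with adjusted p = 0.00122.

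The Gzmb probes are shown because the files place them at 3 separate positions of chromosome 15 (rn4), where genes of similar granule proteases lie side by side. Their first 30 bases are these.
Gzmb probe to X76996, chr15:34900680-34900739: gcctatggatctaaaaatggttcagctcca
Gzmb probe to X66693, chr15:35062817-35063001: attccacacccagcctataatgctaagaca
Gzmb probe to NM_138517, chr15:35195458-35195517: ctgtgacaacccagctgacatctgctagtt
The values above are those of the probe to X76996, the brightest, so the gene behind them is uncertain. The probe to NM_138517 read -4.54, -4.42 and -4.27 at 0.5 h and -3.75, -3.70 and -3.80 at 9 h, also without overlap. The probe to X66693 read -5.46, -5.79 and -5.82 at 0.5 h and -4.16, -3.88 and -5.80 at 9 h, and 9 h replicate 3 lay inside the 0.5 h range. Averaged over the probes, Gzmb was still called at 9 h against both 0.5 h and 6 h.

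Lck, the kinase of the T-cell receptor, read -4.10, -3.70 and -3.75 at 0.5 h, -3.75, -3.63 and -3.67 at 3 h, -3.73, -3.70 and -3.62 at 6 h, and -3.29, -3.42 and -3.38 at 9 h. It rose by 0.49 ± 0.10 (SE), 1.40-fold, from 0.5 h to 9 h, limma adjusted p = 0.00506, but not under quantile scaling (adjusted p = 0.0597). From 6 h to 9 h the difference was 0.32, adjusted p = 0.0396. That call was lost with any of 9 arrays left out and under quantile scaling, which gave -0.003 with adjusted p = 0.987, and median scaling (0.11, adjusted p = 0.471).

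Cd5, an inhibitory co-receptor of T cells, was dim, with a probe well above background on none of the 0.5 h arrays, 1 at 3 h, 2 at 6 h and all 3 at 9 h. It read -6.94, -7.04 and -6.60 at 0.5 h, -7.33, -6.95 and -6.81 at 3 h, -6.64, -7.32 and -6.41 at 6 h, and -5.88, -5.42 and -5.28 at 9 h. Every 9 h array lay above the 9 others. The difference of 9 h from 6 h was 1.26 (limma adjusted p = 0.00435, and 0.106 under quantile scaling). Its probe passed the filter on dim probes only through the 9 h arrays, where it was high, so this call is no independent support for a rise. Against 0.5 h the fit made a call (adjusted p = 0.00335), but the 9 h mean of -5.53 lies under the floor of the 0.5 h arrays, -4.84, so no rise from 0.5 h is shown.

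Cd2, an adhesion receptor of T and natural killer cells, likewise had no 0.5 h array above background, against all 9 later ones. It read -6.97, -6.39 and -6.43 at 0.5 h, -6.37, -5.84 and -6.0 at 3 h, -5.62, -5.60 and -5.73 at 6 h, and -6.19, -5.91 and -6.17 at 9 h. The 6 h arrays were the highest 3 of the 12. The fit called 6 h against 0.5 h (limma adjusted p = 0.00868, and 0.106 under quantile scaling) and 9 h against 0.5 h (adjusted p = 0.0486), but the means of -5.65 and -6.09 lie under the floor of the 0.5 h arrays, -4.84, so no rise is shown. For 9 h, leaving out any of 9 arrays, quantile or median scaling, array weights, or fitting 0.5 h and 9 h alone ended that call, with adjusted p up to 0.703.

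Cd3d, a chain of the T-cell receptor complex, was the only member called at 3 h. It read 0.18, 0.37 and 0.55 at 0.5 h, -0.25, -0.43 and -0.06 at 3 h, 0.40, 0.39 and 0.17 at 6 h, and -0.06, 0.16 and 0.24 at 9 h. The 3 h arrays lay below those of 0.5 h and 6 h. The fall to 3 h was -0.61 ± 0.13 (SE), 1.53-fold with limma adjusted p = 0.00874, and was called under every setting run, normexp among them. The rise from 3 h to 6 h was 0.57 ± 0.13, 1.48-fold with adjusted p = 0.0218, and was lost without 3 h replicate 1 or 2 or 6 h replicate 1 or 2, with adjusted p from 0.0624 to 0.0723. Cd3g, a partner chain, read -2.40, -1.97 and -2.27 at 3 h and -2.09, -2.58 and -2.48 at 0.5 h, and the arrays of both times overlapped.

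**Figure D5:**
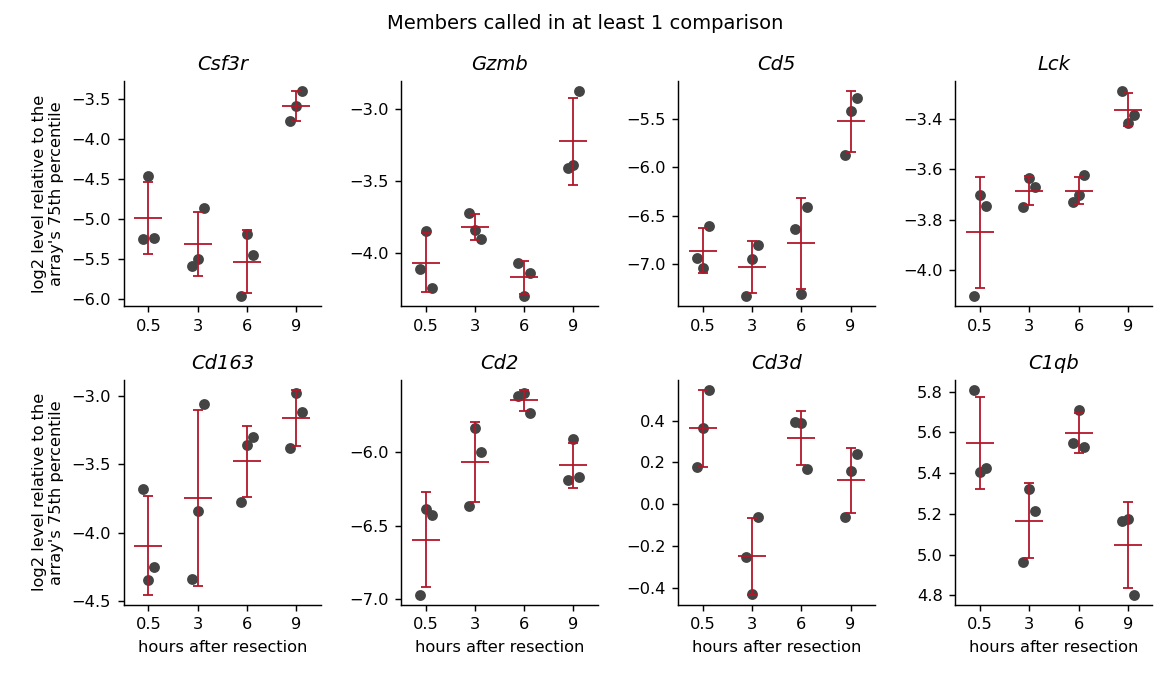
Level on each array (points) with the mean and SD of the 3 arrays of a time (red) for the 8 members called in at least 1 comparison; the vertical axis is log2 level relative to the array's 75th percentile and differs between panels. The 9 h points of Csf3r, Gzmb, Cd5 and Lck lie above all earlier points, those of Cd3d at 3 h lie below those at 0.5 h and 6 h, and the 6 h points of Cd2 are its highest.

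Among the lymphocyte markers that were not called, the B-cell genes Cd79b, a B-cell receptor subunit, and Ms4a1, which encodes CD20, had 9 h means of -3.27 ± 0.28 and -6.0 ± 0.30 (SD, n = 3) and 0.5 h means of -4.64 ± 0.41 and -6.63 ± 0.61. Ms4a1 was well above background on none of the 0.5 h arrays, and its 9 h mean lies under their floor, so no rise is shown. The Cd79b probe was well above background on 1 of 3 arrays at 0.5 h. Cd79b did not overlap between both times, and its difference of 1.37 missed the threshold (limma adjusted p = 0.0541), passing it without 6 h replicate 3 (0.00522). As Cd79b was among the genes that singled out that array, the second value is no independent support. On 6 h replicate 3 Cd79b read -2.02 and Ms4a1 -4.42, each at least 1.01 above the next array. Nkg7, a granule membrane protein of killer cells, read -1.67 there and between -3.75 and -2.69 on the others. Prf1, perforin, had its low value of -6.91 on 0.5 h replicate 1, 1.35 below the next array, with none of the 0.5 h arrays well above background.

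Of the T-cell co-receptors, Cd8b read -3.97, -3.68 and -1.59 at 9 h, and 9 h replicate 3 lay 1.36 above the next array; 9 h replicate 3 was also the highest of 12 for 23.4% of all genes. Cd4 and Cd8a were near background, with probes well above it on 7 and 3 arrays, those 3 all at 6 h. Zap70, a kinase downstream of the T-cell receptor, read -2.40, -2.52 and -2.33 at 9 h, above each 0.5 h array, with a difference of 0.30 (limma adjusted p = 0.0639).

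Related lists put these counts in context, and they too were chosen with earlier results known. Their calls are those of the main fit and were not followed under the other settings. Of 24 other lymphocyte genes tested, 10 were called higher and none lower at 9 h against 0.5 h, against 22.7% and 10.7% of all genes, but 5 of the 10 lay under the floor of the 0.5 h arrays at 9 h. From 6 h to 9 h 10 rose and none fell, against 19.2% and 5.93% of all genes. Examples from 6 h to 9 h were the natural killer receptor Ncr1 by 2.14 (limma adjusted p = 3e-05), the lymph node homing receptor Ccr7 by 1.93 (7.1e-05) and the recombinase Rag1 by 1.13 (8.3e-05). At 6 h the Ncr1 probe was well above background on 1 of 3 arrays, with a mean of -7.60, so its difference is measured from a level at the floor. Of 18 other neutrophil and granule genes, 3 rose at 9 h, namely Chi3l1 by 1.05, Lrg1 by 0.61 and Serpinb1a by 0.30, with a median over the list of 0.61. Of 25 other macrophage and monocyte genes none rose and 1 fell at 9 h against 0.5 h.

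The shares called in the lists of other cells lay at or below those of all genes, of which 22.7% were higher and 10.7% lower at 9 h than at 0.5 h, apart from the falls of glial genes. Of 4 genes of class II antigen presentation and 15 of red blood cells none was called, of 11 mast cell and basophil genes 2 were higher, of 9 platelet genes 2 (1 of them under the 0.5 h floor), of 15 cell division genes 3 and of 10 endothelial genes 2. None of 14 sensory neuron genes was called, and of 13 glial genes 3 fell, with 1 called higher but under the 0.5 h floor. The 14 skeletal muscle and fat genes had a median of 1.11 with none called, and their mean on single arrays lay between -1.43 and 1.58 without following the time. The part of these lists in the members' values was not tested.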

How the data were processed

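The deposited files hold Agilent one-colour rat array scans, and the values used are the processed spot intensity in Cy3, which the scanner software (Agilent Feature Extraction 10.5.1.1, per the file headers) had background-subtracted. The deposited series table held the same values. Intensities were turned to log2, and each array's 75th percentile over the 43379 non-control spots was subtracted. Probes were kept (34842) where, for some time, the scanner's flag put each of the 3 arrays well above background, with the brightest per gene name. Group means over all 12 arrays were compared with limma 3.58.1 (R 4.3.3), adjusted by Benjamini-Hochberg over 29627 genes and called under 0.05, after a run on simulated data. A high array counted as apart if it was at least 1 log2 unit above the next. The members and lists were chosen with earlier results of these data known. Every member was accounted for. Values by array were given for members that were called, stood apart or define their group, for the largest changes of the related lists and for the 10 widest non-member gaps. Same-numbered arrays of different times did not deviate together (median correlation 0.02, range -0.13 to 0.22), so replicate numbers were not treated as pairs. Alternatives were normexp (offset 50), quantile and median scaling, other filters and probe rules, a replicate block, slide as a random block, array weights, fits of 2 times alone and each array left out. The share of all genes stands beside the counts of genes called, highest, lowest or apart, and the precision is limited by the 3 arrays of a time. The values of 1 gene of the related lists are not reported here.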

Additional observations from a re-analysis of the deposited data

How the results depend on the processing

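Numbers are members called unless said otherwise. Normexp left 0 members called in every comparison but that of 3 h with 0.5 h, 3 members apart on 6 h replicate 3 and a lymphocyte spread of 0.731. For 3 h against 0.5 h the count of 1 became 2 with quantile scaling, median scaling, array weights or a fit of both times alone, and 4 with no filter on dim probes; 6 h against 0.5 h became 2 with no filter. With probes well above background on all 12 arrays, counts were 0 at 6 h and 3 at 9 h against 0.5 h, with 3 from 6 h to 9 h, and 4 members stood apart; a gap of 1.5 left 3. Array weights gave 5 for 6 h against 3 h. Slide as a random block, whose estimated correlation was negative (-0.255), gave 5, 3, 18, 7 and 9. The replicate block gave 2 for 3 h against 0.5 h and left the other counts at 1, 7, 1 and 5, although Cd163 (limma adjusted p = 0.0502) and Lck from 6 h to 9 h (adjusted p = 0.0526) lost their calls. Lck from 6 h to 9 h reversed to -0.003 under quantile scaling. With each array left out, counts ran from 1 to 3, 1 to 1, 4 to 13, 0 to 1 and 3 to 8, highest without 3 h replicate 1 in the first and without 6 h replicate 3 in the third and the last. The 0 for 6 h against 3 h came without 3 h replicate 1 or 2 or 6 h replicate 1 or 2, the 4 without 9 h replicate 3 and the 3 without 6 h replicate 2. The spread ran from 0.265 to 0.426 for macrophage, 0.392 to 0.998 for neutrophil and 0.274 to 0.38 for lymphocyte members. Apart from normexp's wider loss of calls over all genes, the cause of these shifts was not tested. Of the values of single genes, 262 kept their call, 60 lost it and 1 reversed. Members not well above background at 0.5 h have only bounds there.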
